A study of Oryctolagus cuniculus with 34 samples.

Results

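The genes described here make, cut and hold together the matrix around muscle fibres: 55 genes of matrix proteases, protease inhibitors, collagen-modifying enzymes and matrix glycoproteins, out of 12937 genes tested and 23669 in the deposited table. They were found by the start of their symbol (ADAM, MMP, TIMP, SERPIN, LAM, FBN, FBLN, LOXL, THBS, TNX, EMILIN, EFEMP, LTBP, MFAP, MATN, NID, HSPG, SPARC, SPON, CTS, P4HA, PLOD or ECM), without TIMP3 and FBLN7, and all 55 matched genes passed the minimum of over 1 CPM (reads of a gene scaled to a common library total) in at least 1 library. On library totals without the TMM scaling described below, SERPINC1 and ADAM8 came closest to it, at 1.92 and 2.72 CPM in their highest library. Symbols, which are those of human orthologs, were at hand for only 3310 of the genes tested. Of the 55 members, 20 came from a listing of genes with early identifiers and 35 only from the study's co-expression listing, which holds genes that vary together among the repair libraries. Only the leading rows of that listing were used here, and they held its first module, so each member found there (41 in all) is of that module by how the rows were taken. The choice of members by the second listing is therefore not independent of how they vary after repair, and counts are given for the sources apart where they lead. The members were 11 secreted ADAMTS proteases, 3 ADAMTS-like proteins, 4 ADAM proteases, 3 matrix metalloproteinases, 4 cathepsins, 3 serpins, 2 collagen-modifying enzymes, 7 basement membrane glycoproteins, 11 microfibril and elastic fibre proteins, 6 matricellular and other glycoproteins, and MFAP1. The last is a nuclear splicing protein that shares only the start of its name with the microfibril proteins.

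RNA was sequenced from the posterior lateral region of the supraspinatus, a rotator cuff muscle, of 17 skeletally mature female New Zealand White rabbits of about 6 months. In every rabbit the left supraspinatus tendon was cut and left for 8 weeks (tenotomy), then reattached, and the muscle was taken at 1, 2, 4 or 8 weeks after repair. The right shoulder of the same animal was the control, unoperated in the study's methods and a skin cut in the labels. The groups were repair and control at 1 week (rabbits 5, 6, 7 and 8), 2 weeks (rabbits 59, 60, 61, 62 and 64), 4 weeks (rabbits 63, 66, 67 and 68) and 8 weeks (rabbits 1, 2, 3 and 4). No shoulder was cut and left unrepaired among these libraries, so an effect of repair cannot be told apart from one of the tenotomy before it. The study dropped 1 repair library of 8 weeks at quality control, and that of rabbit 3 was left out here, so the 8-week repair group held 3 libraries and the fit 33. Totals on genes ran from 9220035 to 28395188. Library titles form a series for 1 and 8 weeks (median total 19343431) and another for 2 and 4 weeks (10625163), so time and series cannot be told apart between those pairs. In controls, 48 of 55 members had a higher mean in the first series (8 libraries) than in the second (9), with a median ratio of 1.76 against 1.01 over all genes.

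Extracellular matrix in muscle is layered. Laminins, nidogens and perlecan form the basement membrane on each fibre, while fibrillins, LTBPs, fibulins and EMILINs form microfibrils and elastic fibres in the connective tissue between them and hold latent TGF-beta. ADAMTS, MMP and ADAM enzymes and cathepsin K cut these proteins, serpins restrain proteases or, like SERPINH1, fold collagen, and matricellular proteins such as THBS1 and SPARC act on cells more than as structure. Tenotomy and reloading are both known to change this matrix in muscle.

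Members were compared between repair and control at each time with limma-voom, with Benjamini-Hochberg adjustment over all 12937 genes. A gene is named DE where its adjusted p was under 0.05 and its absolute log2 fold change (log2FC, repair minus control) above 1. It is named called where its adjusted p was under 0.05 at any log2FC, so DE genes are called as well. At 1 week 10 of 55 members were DE and higher and 0 lower, where 4.72% of all genes were DE and higher and 1.44% DE and lower. At 2 weeks 18 were DE and higher and 0 lower, against 4.82% and 0.951%. At 4 and 8 weeks no member was DE in limma-voom, against 0.0618% and 0.00773% of all genes. In edgeR 13 and 42 members were DE at 1 and 2 weeks (5.82% and 15.5% of all genes), and in DESeq2 20 and 42 (7.66% and 15.7%). An unadjusted p under 0.05 was found for 11 members at 4 weeks (15.9% of all genes) and 6 at 8 weeks (3.07%). At 4 weeks edgeR made 3 members DE (1.75% of all genes) and DESeq2 8 (3.03%), and at 8 weeks neither tool made any member DE (0.00773% and 0.0387% of all genes). The median log2FC over the 55 members was 1.22, 1.56, 0.91 and 0.33 at 1, 2, 4 and 8 weeks, against 0.05, 0.06, 0.05 and 0.01 over all genes. By source, 4 of the 20 and 6 of the 35 were DE at 1 week and 5 of the 20 and 13 of the 35 at 2 weeks. Of the 14 members not found in those rows, 1 was DE at 1 week and 2 at 2 weeks, with medians of 0.96 and 1.16.

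These counts moved with how the shoulders of a rabbit were treated. With the rabbit as a block, 30 members were DE at 1 week (29 higher and 1 lower, against 11.6% of all genes DE), 37 at 2 weeks (14.1%) and 4 at 4 weeks (1.82%), these all higher, and none at 8 weeks (0.00773%). With the left-out library of rabbit 3 restored, 3 were DE at 1 week (ADAMTSL1, LAMA3 and LTBP1, against 1.95% of all genes) and 4 at 2 weeks (ADAMTS3, EFEMP1, LAMA3 and MFAP4, against 2.37%).

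**Figure D1:**
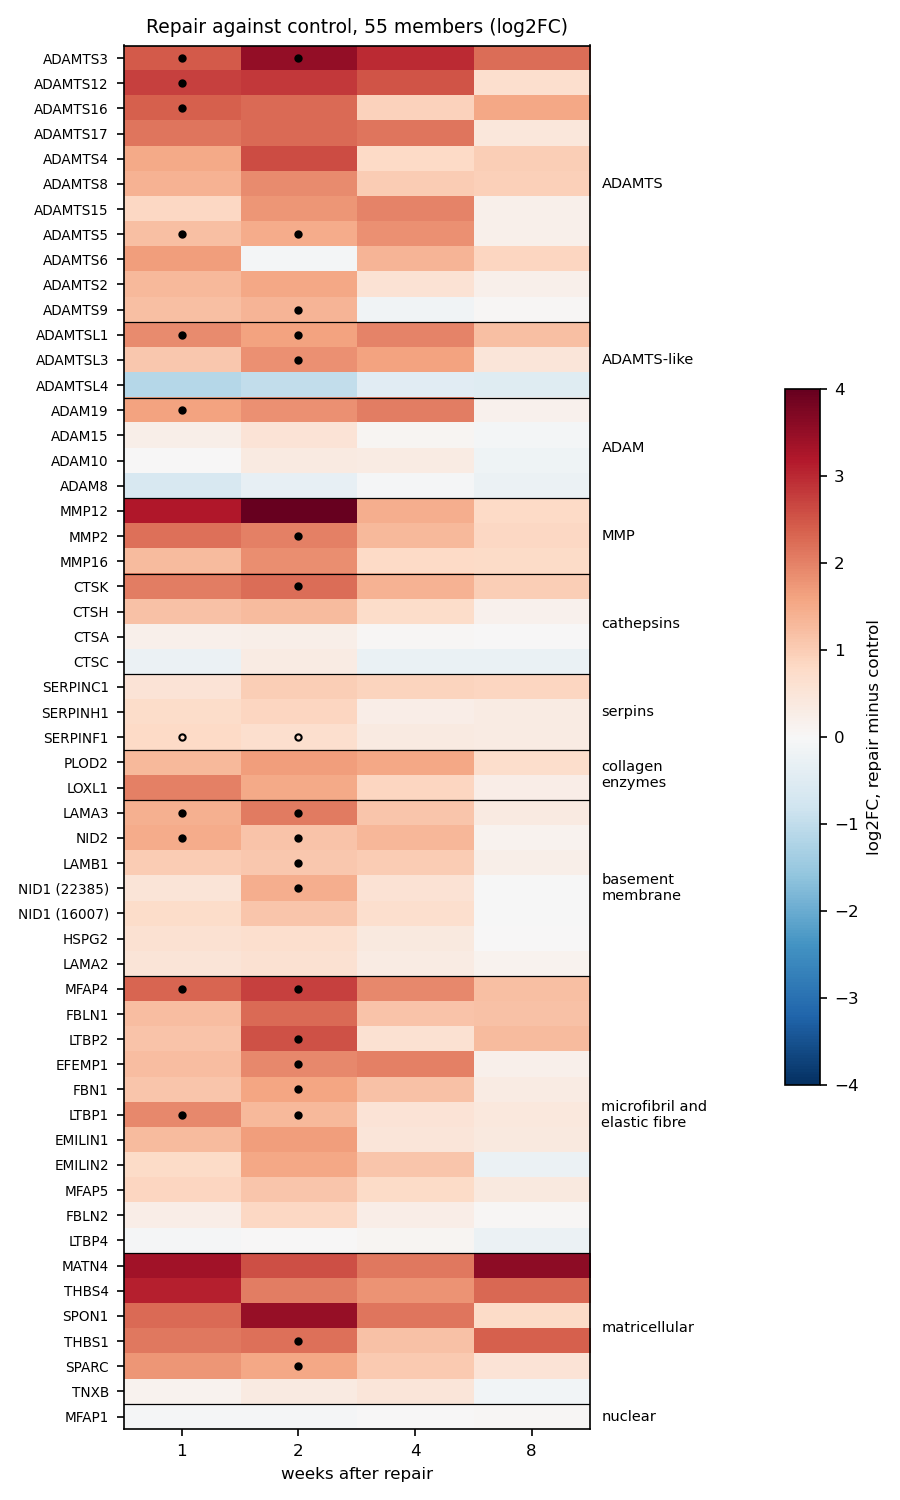
Log2FC (repair minus control, colour, from -4 to 4) of the 55 members, in rows by role and ordered within a role by their mean over the 4 times, at 1, 2, 4 and 8 weeks after repair in columns. Filled dots mark DE members (10 at 1 week, 18 at 2 weeks) and open dots SERPINF1, which was called with a log2FC under 1; the 2 NID1 genes carry the end of their identifiers.

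Averaged over the 4 times in the same fit, 29 members were DE, all higher, where 8.33% of all genes were DE and higher, and 41 were called higher and 1 lower, against 22.4% and 17.7%. Without ADAMTS3 and MMP12, which passed the filter on low values only through repair libraries, 28 of 53 members were DE. By source, 9 of the 20 and 20 of the 35 were DE, and of the 14 members not found in the co-expression rows 6. All 11 ADAMTS proteases were called higher, with 8 of them DE, and so were 5 of 6 matricellular members, 8 of 11 microfibril members and all 3 serpins. Of the ADAMTS calls, those of ADAMTS5, ADAMTS12, ADAMTS15 and ADAMTS16 held in all 10 other settings and without any 1 library. That of ADAMTS3 held as well, but it is not independent of the filter. ADAMTS6 lost its call in 7 settings (with the rabbit block at an adjusted p of 0.185) and in 23 of 33 fits without 1 library, ADAMTS2 in 1 and 21, ADAMTS9 in 2 and 5, ADAMTS8 in 0 and 13, ADAMTS4 in 1 and 0, and ADAMTS17 in 0 and 1. By role the median log2FC was largest in the matricellular group (2.07), then the matrix metalloproteinases (1.58) and ADAMTS proteases (1.31), and it was 0.63 in the basement membrane group and 0.17 in the ADAM proteases. Of the 29 members, 11 were DE at no single time. No member was DE and lower, and ADAMTSL4 was the one called lower.

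**Figure D2:**
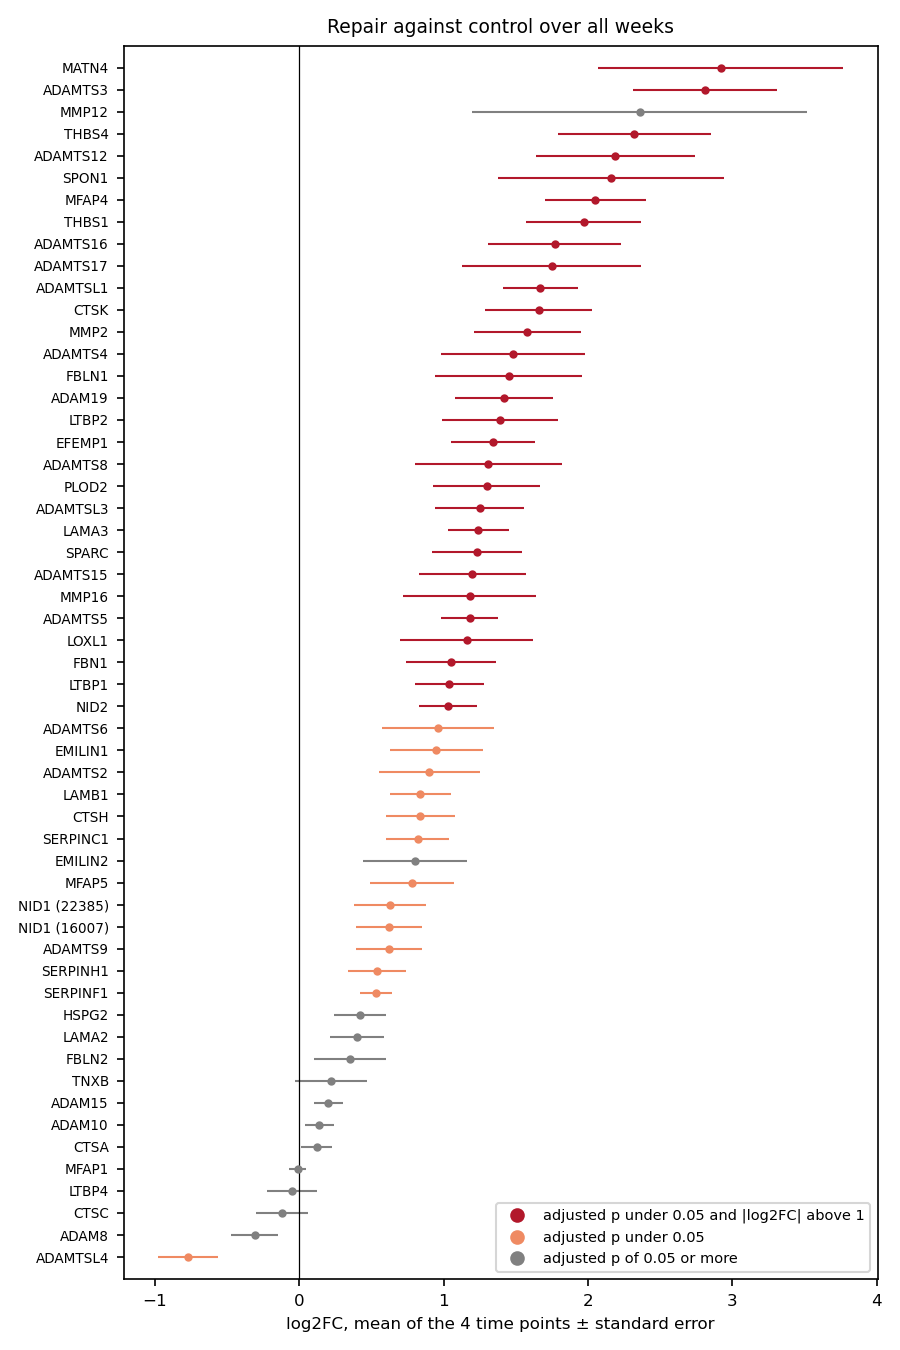
Log2FC averaged over the 4 times (x axis) with its standard error (bars) for each of the 55 members (rows). Members run from ADAMTSL4 at -0.77 to MATN4 at 2.92, and colours separate 29 DE members, 13 called with a smaller change and 13 not called.

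Among the ADAMTS enzymes, which cut proteoglycans, procollagens and microfibril proteins, 4 rose at 1 week and 3 at 2 weeks. ADAMTS5 (ENSOCUG00000002859), an aggrecanase that cuts large proteoglycans, was measured at 1 week at 3.78, 5.05, 4.08 and 5.07 CPM in the controls of rabbits 5, 6, 7 and 8, and at 8.08, 13.7, 11.7 and 7.97 in their repaired shoulders. Every repaired shoulder was above every control, with a log2FC of 1.19 ± 0.29 (SE) and an adjusted p of 0.0107 in limma-voom. At 2 weeks its controls held 0.727, 1.35, 2.23, 2.67 and 3.05 CPM in rabbits 59, 60, 61, 62 and 64 and the repaired shoulders 9.84, 2.22, 4.96, 7.33 and 3.23. The groups overlapped, though each repaired shoulder was above its own control (log2FC 1.49 ± 0.44, adjusted p = 0.0272, limma-voom). At 4 weeks rabbits 63, 66 and 67 had 7.37, 7.54 and 7.42 CPM after repair and rabbit 68 had 3.23, against controls of 1.01 to 2.40. The log2FC of 1.82 ± 0.50 was the largest of ADAMTS5 and missed the threshold at an adjusted p of 0.0959, or 0.0475 with the rabbit block. At 8 weeks repair held 4.31 to 7.99 CPM and control 5.43 to 5.98 (log2FC 0.20 ± 0.33).

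ADAMTS3 (ENSOCUG00000003040), which removes the N-terminal propeptide of procollagens and also takes part in VEGF-C processing, was low, over 1 CPM in 7 of 33 libraries, all of them repair. Its controls held 0.214, 0.277, 0.187 and 0.214 CPM at 1 week and the repaired shoulders 0.499, 1.16, 2.83 and 1.56 in rabbits 5, 6, 7 and 8 (log2FC 2.46 ± 0.79, adjusted p = 0.0382, limma-voom). The groups did not overlap. At 2 weeks rabbits 59 and 62 reached 5.08 and 3.83 CPM after repair, and rabbits 60, 61 and 64 only 0.101, 0.292 and 0.414, with controls of 0 in 3 rabbits, 0.104 in rabbit 59 and 0.218 in rabbit 64. The log2FC was 3.53 ± 1.04 (adjusted p = 0.0268, limma-voom), and its size depends on the small prior count because controls were at or near 0. ADAMTS3 passed the filter on low values only through repair libraries, so its calls are not independent of that filter, and without it and MMP12, which passed the same way, 9 of 53 members were DE at 1 week and 17 at 2 weeks. Its 1-week call was lost with no filter, with all 34 libraries and in 7 of 8 fits without a library of that week (adjusted p 0.0195 to 0.118 over those 8, limma-voom). ADAMTS3 was above its own control in 16 of 16 rabbits over the 4 times, with the same limit from the filter. In rabbit 60 this was an expected count of 1 against 0.

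ADAMTS12 (ENSOCUG00000006357), a protease known to cut cartilage oligomeric matrix protein, rose at 1 week from 3.92, 4.16, 3.37 and 1.79 CPM in the controls to 22.6, 12.0, 70.5 and 11.2 CPM in rabbits 5, 6, 7 and 8. Rabbit 7 stood highest and the groups did not overlap (log2FC 2.73 ± 0.87, adjusted p = 0.0379, limma-voom). At 2 weeks the repaired shoulders held 97.8, 3.94, 3.01, 39.4 and 1.82 CPM in rabbits 59, 60, 61, 62 and 64, against 1.07 to 2.49 in control. Rabbits 59 and 62 were far above the others, and the log2FC of 2.83 ± 1.23 was not called (adjusted p = 0.0991), though it was 3.89 with an adjusted p of 0.00219 with the rabbit block. At 4 weeks repair held 6.55 to 23.1 CPM and control 1.24 to 3.23 without overlap, and at 8 weeks 5.94 to 11.4 and 4.36 to 7.30.

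ADAMTS9 (ENSOCUG00000000109), a versican-cutting protease, was DE at 2 weeks, with controls at 5.30, 3.31, 2.33, 2.77 and 3.70 CPM and repaired shoulders at 25.6, 4.75, 5.74, 10.5 and 4.47 in rabbits 59, 60, 61, 62 and 64 (log2FC 1.35 ± 0.45, adjusted p = 0.0436, limma-voom). Each repaired shoulder was above its own control and the groups overlapped. At 1 week the log2FC was 1.21 ± 0.45 (adjusted p = 0.0643, or 0.0252 with the rabbit block). Its difference was -0.13 ± 0.51 at 4 weeks and 0.05 ± 0.42 at 8 weeks, and the sign changed at 4 weeks in 2 fits without 1 library and at 8 weeks also in other settings. ADAMTS16 (ENSOCUG00000009507), named after its values were seen, was DE at 1 week, from 0.214, 0.499, 0.374 and 0.357 CPM in control to 1.35, 3.71, 1.17 and 2.61 after repair (log2FC 2.39 ± 0.81, adjusted p = 0.0471, limma-voom). At 2 weeks it held 0.0828 to 2.60 CPM after repair and 0 to 1.03 in control, with an adjusted p of 0.112, or 0.00969 with the rabbit block. The remaining 6 ADAMTS members (ADAMTS2, ADAMTS4, ADAMTS6, ADAMTS8, ADAMTS15 and ADAMTS17) were DE at no single time in limma-voom and had log2FC of 0.84 to 2.13 at 1 week. With the rabbit block ADAMTS4 and ADAMTS17 were DE at 1 week (adjusted p = 0.0143 and 0.0145), and ADAMTS2, ADAMTS4, ADAMTS8, ADAMTS15 and ADAMTS17 at 2 weeks, with log2FC of 2.08 to 3.34. Over all weeks ADAMTS4, ADAMTS8, ADAMTS15 and ADAMTS17 were DE, with log2FC from 1.20 to 1.75. ADAMTS4, another aggrecanase, reached 10.3 CPM in its highest 2-week repair library, where controls held 0 to 0.327.

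ADAMTS-like proteins share the ancillary domains of the ADAMTS family without a protease domain and bind microfibrils. ADAMTSL1 (ENSOCUG00000004895) had the smallest adjusted p of the members at 1 week. Its controls held 3.92, 4.32, 3.25 and 4.14 CPM and the repaired shoulders 14.7, 11.8, 20.7 and 11.3 in rabbits 5, 6, 7 and 8. There was no overlap, at a log2FC of 1.89 ± 0.45 and an adjusted p of 0.00962 in limma-voom. At 2 weeks the repaired shoulders held 26.6, 3.74, 5.05, 18.6 and 4.89 CPM in rabbits 59, 60, 61, 62 and 64 and the controls 2.49, 3.11, 2.91, 5.34 and 2.18 (log2FC 1.60 ± 0.55, adjusted p = 0.0466, limma-voom). Rabbits 59 and 62 were again highest, and the others lay within the control range. At 4 weeks its repaired shoulders, 10.1 to 19.6 CPM, were all above controls of 1.97 to 4.97 (log2FC 1.97 ± 0.60, adjusted p = 0.125, or 0.0265 with the rabbit block), and at 8 weeks the log2FC was 1.21 ± 0.50.

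ADAMTSL3 (ENSOCUG00000002672) was DE at 2 weeks. Its controls held 5.61, 4.24, 3.20, 3.08 and 3.92 CPM and the repaired shoulders 45.9, 5.96, 7.58, 32.6 and 5.38 in rabbits 59, 60, 61, 62 and 64 (log2FC 1.83 ± 0.61, adjusted p = 0.0422, limma-voom). The repaired shoulder was above its own control in 16 of 16 rabbits over the 4 times. At 1 week the log2FC was 1.08 ± 0.47 (adjusted p = 0.110, or 0.0168 with the rabbit block).

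ADAMTSL4 (ENSOCUG00000000927), a fibrillin-1 binding protein that supports microfibril assembly in the eye, was lower after repair. It was named after its values were seen. At 1 week its controls held 70.8, 74.1, 94.1 and 81.4 CPM and the repaired shoulders 19.6, 47.5, 36.3 and 50.1 in rabbits 5, 6, 7 and 8. Every repaired shoulder was below every control, as for 13.3% of all genes, at a log2FC of -1.14 ± 0.42 with an adjusted p of 0.0648 in limma-voom and 0.0490 with the rabbit block. At 2 weeks the controls held 267, 202, 155, 91 and 85.1 CPM and the repaired shoulders 39.9, 92.4, 94.8, 79.3 and 75.4 in rabbits 59, 60, 61, 62 and 64 (log2FC -0.98 ± 0.38, adjusted p = 0.0687). The repaired shoulder was lower in 5 of 5 rabbits there, and rabbit 59 had both the highest control and the lowest repaired value. DESeq2 called it lower at both times (log2FC -1.07 at 1 week and -1.08 at 2 weeks) and edgeR at 2 weeks (-1.07). Over all weeks ADAMTSL4 fell by 0.77 ± 0.21 on the log2 scale (adjusted p = 0.00573, limma-voom), with the repaired shoulder lower in 14 of 16 rabbits, and this call held without any 1 of the 33 libraries (adjusted p 0.00108 to 0.0132).

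**Figure D3:**
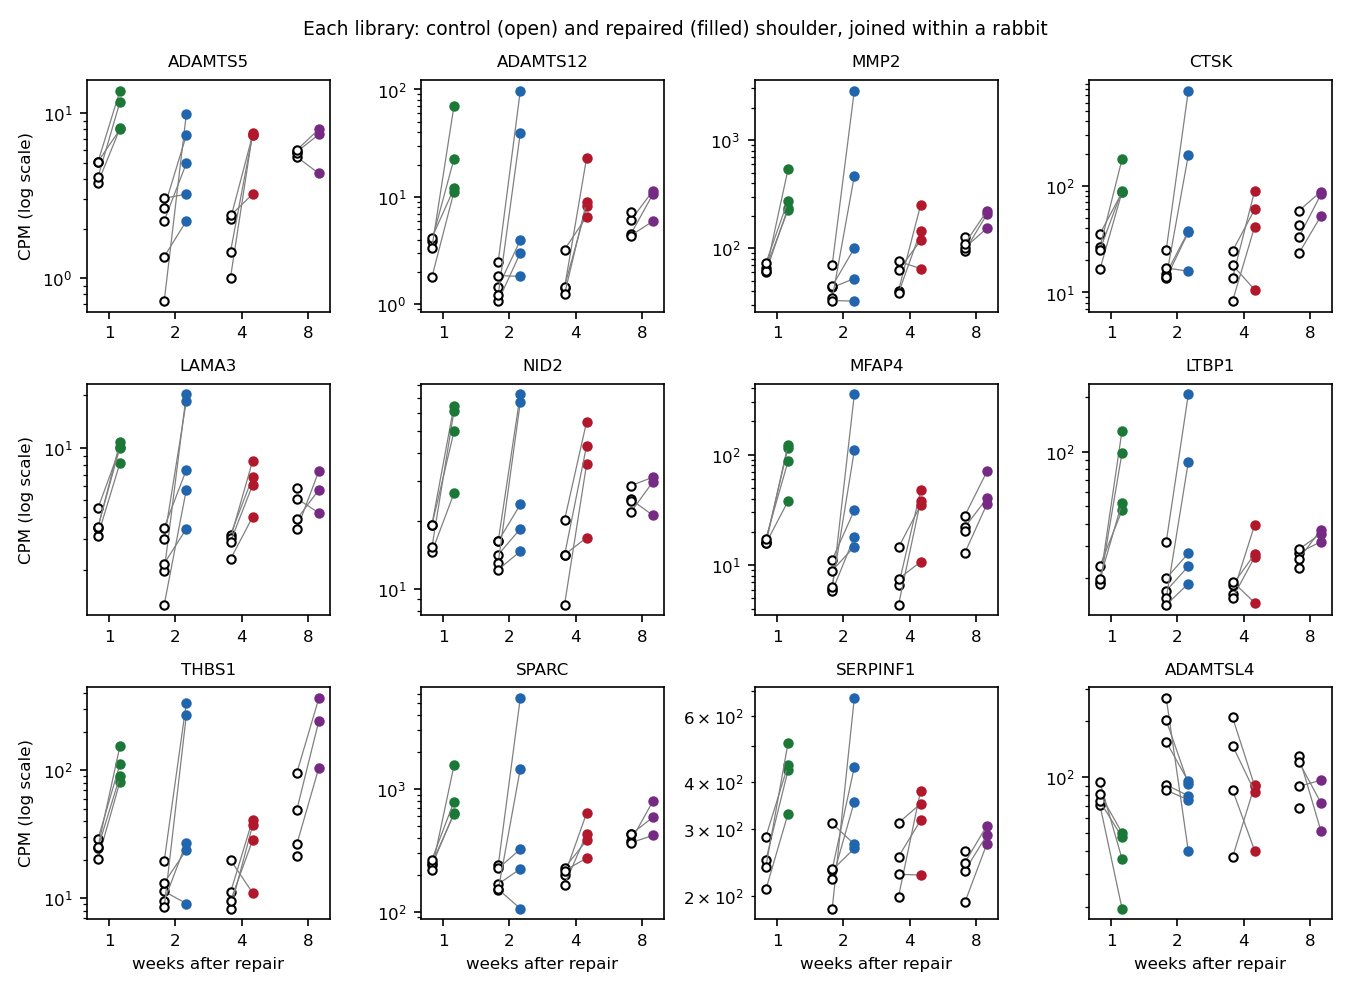
CPM of 12 members on a log scale (y axis) in every library in the fit, by weeks after repair (x axis), with open points for control and filled points for repaired shoulders joined within a rabbit. ADAMTSL4 runs downward at 1 week in 4 of 4 rabbits while the other members shown run upward there, and at 2 weeks rabbits 59 and 62 stand above the rest in panels such as MMP2 (2871 and 467 CPM).

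MMP2 (ENSOCUG00000006714), gelatinase A, which cuts denatured collagen and type IV collagen, had controls of 70.4, 43.3, 44.6, 34.4 and 32.8 CPM at 2 weeks and repaired shoulders of 2871, 52.4, 100, 467 and 32.4 in rabbits 59, 60, 61, 62 and 64. Rabbits 59, 61 and 62 were above every control and rabbits 60 and 64 were not (log2FC 2.01 ± 0.64, adjusted p = 0.0343, limma-voom). At 1 week the repaired shoulders held 225, 237, 535 and 276 CPM in rabbits 5, 6, 7 and 8 and the controls 60 to 72.9, without overlap. The log2FC of 2.19 ± 0.80 was not called there (adjusted p = 0.0618), but was with the rabbit block (2.16, adjusted p = 0.0288). At 8 weeks MMP2 held 153 to 221 CPM after repair against 94.5 to 128 in control, without overlap, at a log2FC of 0.83 ± 0.82. On library totals without TMM scaling, MMP12, the macrophage elastase, was over 1 CPM in 6 libraries, all of them repair. With the scaling, the library of rabbit 7 at 1 week among them held 0.954 CPM. MMP12 reached 32.9 CPM in its highest 2-week repair library, with controls of that week between 0 and 0.104. The report's limma-voom fit did not call it, while some other settings made it DE at 1 and 2 weeks. Like ADAMTS3 it passed the filter only through repair libraries, so its other tests are not given. MMP16, a membrane-bound metalloproteinase, was DE over all weeks (log2FC 1.18 ± 0.46, adjusted p = 0.0417, limma-voom), and at 2 weeks with the rabbit block (3.07, adjusted p = 0.00711).

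Of the membrane ADAM proteases, which shed proteins from the cell surface, ADAM19 (ENSOCUG00000001235) was DE at 1 week. Controls held 3.99, 3.66, 4.34 and 2.36 CPM and repaired shoulders 4.79, 20.2, 17.5 and 8.01 in rabbits 5, 6, 7 and 8 (log2FC 1.62 ± 0.49, adjusted p = 0.0302, limma-voom). There was no overlap, although rabbit 5 stood only just above the controls. At 2 weeks ADAM19 had a log2FC of 1.82 ± 0.70 (adjusted p = 0.0672, or 0.00455 with the rabbit block, where it was 2.07). The other three members of the group were not called over all weeks: ADAM10 and ADAM15, which are widely expressed, at 0.14 and 0.20 (ADAM15 was called at 2 weeks with the rabbit block, 0.56, adjusted p = 0.0245), and ADAM8, a leukocyte protease, at -0.31 ± 0.16.

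CTSK (ENSOCUG00000011090), cathepsin K, the collagen-cutting protease known from osteoclasts, had controls of 25.1, 13.6, 15.0, 13.9 and 17.0 CPM at 2 weeks and repaired shoulders of 779, 36.7, 37.4, 194 and 15.8 in rabbits 59, 60, 61, 62 and 64 (log2FC 2.23 ± 0.69, adjusted p = 0.0315, limma-voom). Rabbit 64 was the only one not above every control. At 1 week repair held 87.4, 86.5, 177 and 90.1 CPM and control 16.5 to 35.4, without overlap, at a log2FC of 2.05 ± 0.75 (adjusted p = 0.0621, or 0.0175 with the rabbit block). CTSH was called over all weeks (log2FC 0.84 ± 0.24, adjusted p = 0.00837, limma-voom), and with the rabbit block also at 1 and 2 weeks (1.20 and 1.53, adjusted p = 0.0147 and 0.00617), whereas the lysosomal CTSA and CTSC had log2FC of 0.12 ± 0.11 and -0.12 ± 0.18 and were not.

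Of the 3 serpins, SERPINF1 (ENSOCUG00000000092), pigment epithelium-derived factor, a serpin without protease inhibition, was named after its values were seen. At 1 week it held 249, 287, 239 and 208 CPM in control and 430, 444, 508 and 330 after repair in rabbits 5, 6, 7 and 8, without overlap (log2FC 0.79 ± 0.24, adjusted p = 0.0299, limma-voom). At 2 weeks it held 185, 221, 234, 235 and 311 CPM in control and 669, 355, 267, 439 and 274 after repair (log2FC 0.67 ± 0.19, adjusted p = 0.0246, limma-voom), higher in 4 of 5 rabbits. SERPINH1, the collagen chaperone HSP47, and SERPINC1, antithrombin, were called in limma-voom over all weeks, at log2FC of 0.54 ± 0.20 and 0.82 ± 0.22, and SERPINH1 also at 2 weeks with the rabbit block (0.95, adjusted p = 0.0371). Both collagen-modifying enzymes, the lysyl hydroxylase PLOD2 and the crosslinking oxidase LOXL1, were DE over all weeks (1.3 ± 0.37 and 1.16 ± 0.46; adjusted p = 0.00698 and 0.0456, limma-voom) and at no single time in that fit. With the rabbit block PLOD2 was DE at 1 and 2 weeks (1.40 and 2.14, adjusted p = 0.0429 and 0.00606) and so was LOXL1 (2.12 and 2.49, adjusted p = 0.0141 and 0.00657).

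In the basement membrane group 2 members were DE at 1 week and 4 at 2 weeks. LAMA3 (ENSOCUG00000009869), the alpha-3 laminin chain, known mostly from epithelia, had the smallest adjusted p of the members at 2 weeks. At 1 week its controls held 3.14, 4.49, 3.48 and 3.50 CPM and the repaired shoulders 8.18, 9.94, 10.7 and 10.1 in rabbits 5, 6, 7 and 8, without overlap (log2FC 1.41 ± 0.35, adjusted p = 0.0126, limma-voom). At 2 weeks its controls held 1.97, 2.17, 1.26, 2.98 and 3.49 CPM and the repaired shoulders 20.2, 3.43, 5.74, 18.4 and 7.45 in rabbits 59, 60, 61, 62 and 64. Only rabbit 60 lay within the control range, at a log2FC of 2.08 ± 0.45 and an adjusted p of 0.00847 in limma-voom. At 4 weeks the groups did not overlap, with 4.01 to 8.39 CPM after repair and 2.30 to 3.17 in control (log2FC 1.11 ± 0.50, adjusted p = 0.277).

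NID2 (ENSOCUG00000003689), nidogen-2, which links laminin to type IV collagen, held 14.6, 19.3, 15.3 and 19.2 CPM in control at 1 week and 26.6, 64.9, 61.5 and 49.9 after repair, without overlap (log2FC 1.49 ± 0.40, adjusted p = 0.0176, limma-voom). At 2 weeks repair held 72.9, 18.5, 23.7, 67.3 and 14.7 CPM in rabbits 59, 60, 61, 62 and 64 and control 12.2 to 16.3 (log2FC 1.15 ± 0.38, adjusted p = 0.0405, limma-voom). Rabbit 64 alone overlapped the controls. At 4 weeks the log2FC was 1.34 ± 0.43 (adjusted p = 0.143, or 0.0413 with the rabbit block) and at 8 weeks 0.13 ± 0.41. LAMB1 (ENSOCUG00000014676), the beta-1 laminin chain, was DE at 2 weeks, with controls of 73.3, 44.8, 54.1, 37.8 and 41.4 CPM and repaired shoulders of 435, 56.9, 70.3, 193 and 39.8 (log2FC 1.08 ± 0.36, adjusted p = 0.0437, limma-voom). Rabbits 59 and 62 were above every control. At 1 week the adjusted p of LAMB1 was 0.0962, or 0.0485 with the rabbit block.

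The symbol NID1, nidogen-1, is carried by 2 identifiers, and how reads were divided between them is not known. ENSOCUG00000022385 was DE at 2 weeks, with controls of 9.12, 5.42, 6.43, 5.99 and 6.22 CPM and repaired shoulders of 67.3, 8.32, 10.5, 40.7 and 5.44 (log2FC 1.44 ± 0.50, adjusted p = 0.0474, limma-voom). ENSOCUG00000016007 had a log2FC of 1.10 ± 0.44 (adjusted p = 0.0771, or 0.00887 with the rabbit block). HSPG2 (perlecan) and LAMA2, the main laminin alpha chain of the muscle fibre, were not called at any time or over all weeks, at 0.42 ± 0.18 and 0.40 ± 0.19 over all weeks.

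Among microfibril and elastic fibre proteins 2 were DE at 1 week and 5 at 2 weeks. MFAP4 (ENSOCUG00000015162), a glycoprotein on elastic fibres, was the one member without overlap at 2 weeks, when 4.10% of all genes had every repaired library above every control. Its controls of that week held 6.13, 5.80, 11.2, 6.37 and 8.93 CPM and its repaired shoulders 352, 18, 31.4, 109 and 14.7 in rabbits 59, 60, 61, 62 and 64 (log2FC 2.73 ± 0.70, adjusted p = 0.0162, limma-voom). At 1 week it rose from 15.7, 16.3, 15.7 and 17.4 CPM to 37.9, 116, 123 and 87.0 (log2FC 2.33 ± 0.65, adjusted p = 0.0219, limma-voom). At 8 weeks MFAP4 held 40.2, 35.7 and 70.4 CPM after repair in rabbits 1, 2 and 4 and 12.9 to 28 in control, again without overlap (log2FC 1.21 ± 0.66), and it was above its own control in 16 of 16 rabbits.

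LTBP1 (ENSOCUG00000009598), which binds latent TGF-beta to the matrix, held 19.1, 23.3, 18.5 and 19.8 CPM in control at 1 week and 131, 47.4, 98.9 and 52.3 after repair, without overlap (log2FC 1.91 ± 0.48, adjusted p = 0.0134, limma-voom). At 2 weeks it held 31.7, 17.0, 19.9, 15.4 and 14.2 CPM in control and 208, 23.2, 27.4, 88.0 and 18.6 after repair (log2FC 1.29 ± 0.44, adjusted p = 0.0445, limma-voom), higher in 5 of 5 rabbits with overlap. LTBP2 (ENSOCUG00000014077), an LTBP that does not bind latent TGF-beta and was named after its values were seen, was DE at 2 weeks just inside the threshold. Its repaired shoulders held 36.7, 2.22, 5.64, 19.6 and 2.82 CPM and its controls 0.623 to 3.30 (log2FC 2.56 ± 0.90, adjusted p = 0.0499, limma-voom). At 1 week its adjusted p was 0.151, or 0.0266 with the rabbit block. LTBP4 showed a log2FC of -0.05 ± 0.17 over all weeks.

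EFEMP1 (ENSOCUG00000014657), fibulin-3, was DE at 2 weeks, with controls of 21.7, 14.5, 17.7, 16.9 and 20.9 CPM and repaired shoulders of 254, 47.9, 56.9, 122 and 20.2 in rabbits 59, 60, 61, 62 and 64 (log2FC 1.93 ± 0.53, adjusted p = 0.0211, limma-voom). Only rabbit 64 overlapped the controls. Its log2FC at 4 weeks was larger, 2.03 ± 0.60, with 151, 75.6, 110 and 15.8 CPM in rabbits 63, 66, 67 and 68 against controls of 8.86 to 28.2. It was not called there in limma-voom (adjusted p = 0.121), and was with the rabbit block (0.0234), in edgeR, in DESeq2 and with quality weights for the libraries, and at 1 week the adjusted p was 0.132, or 0.0496 with the block. FBN1 (ENSOCUG00000003866), fibrillin-1, the backbone of microfibrils, was DE at 2 weeks, from 96.0, 54.9, 68.5, 49.6 and 60.8 CPM to 1286, 79.0, 125, 519 and 50.5 (log2FC 1.58 ± 0.52, adjusted p = 0.0400, limma-voom). Rabbit 64 was below its own control. FBN1 controls averaged 132 ± 31.5 and 229 ± 36.0 CPM (SD, n = 4 each) at 1 and 8 weeks and 66 ± 18.2 (n = 5) and 65.3 ± 21.8 (n = 4) at 2 and 4 weeks, the other library series. FBLN1 was DE over all weeks (1.45 ± 0.51, adjusted p = 0.0259, limma-voom) and EMILIN1 and MFAP5 were called, whereas EMILIN2, FBLN2 and LTBP4 were not. With the rabbit block FBLN1, EMILIN1 and EMILIN2 were DE at 2 weeks (3.30, 2.14 and 2.15, adjusted p = 0.00439, 0.00507 and 0.00978), EMILIN1 at 1 week (1.34, adjusted p = 0.0294) and EMILIN2 over all weeks (1.03, adjusted p = 0.00618).

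THBS1 (ENSOCUG00000003792), thrombospondin-1, which can release active TGF-beta, was one of 2 matricellular members DE at 2 weeks. Its controls held 19.5, 11.3, 9.52, 8.52 and 13.2 CPM and its repaired shoulders 335, 9.09, 27.2, 268 and 23.8 in rabbits 59, 60, 61, 62 and 64 (log2FC 2.20 ± 0.73, adjusted p = 0.0412, limma-voom). Rabbit 60 was below its own control and the other 4 were above every control. At 1 week the repaired shoulders held 81.6, 112, 90.1 and 155 CPM against 20.1 to 28.8, without overlap (log2FC 2.12 ± 0.76, adjusted p = 0.0580, or 0.0139 with the rabbit block). At 8 weeks THBS1 held 244, 105 and 367 CPM after repair in rabbits 1, 2 and 4, and its controls 49, 26.4, 21.2 and 95.3 in rabbits 1 to 4. The groups did not overlap and the log2FC of 2.39 ± 0.84 was the largest of its 4, with an adjusted p of 0.999.

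SPARC (ENSOCUG00000012120), osteonectin, a collagen-binding protein, averaged 578 CPM over the libraries. At 2 weeks its controls held 238, 168, 225, 150 and 152 CPM and its repaired shoulders 5524, 223, 323, 1465 and 106 in rabbits 59, 60, 61, 62 and 64 (log2FC 1.56 ± 0.53, adjusted p = 0.0437, limma-voom). Rabbit 64 was below its control, and with the rabbit block the call was lost (1.22, adjusted p = 0.0596). At 1 week its repaired shoulders, 637, 628, 1556 and 790 CPM, were all above controls of 220 to 266 (log2FC 1.77 ± 0.67, adjusted p = 0.0720, or 0.0486 with the block). THBS4 and MATN4, looked at after their values were seen, were the largest of the group at 1 week (3.12 ± 1.08 and 3.37 ± 1.25, adjusted p = 0.0522 and 0.0649 in limma-voom). With the rabbit block both were DE at 1 week (adjusted p = 0.0144 and 0.00322) and at 2 weeks (0.0271 and 0.00732). THBS4, a thrombospondin of tendon and muscle, held 153, 246, 237 and 229 CPM after repair at 1 week and 16.8 to 28 in control, and at 8 weeks 133 to 497 against 29.2 to 147. MATN4, a matrilin, held 3.62 to 21.0 CPM at 8 weeks and 0.261 to 4.40 in control. THBS1, THBS4 and MATN4 had log2FC of 2.29 to 3.59 at 8 weeks, where the median over members was 0.33, and none was called. SPON1 was DE over all weeks (2.16 ± 0.78, adjusted p = 0.0292, limma-voom), and with the rabbit block at 1 and 2 weeks (2.42 and 5.09, adjusted p = 0.0110 and 0.00205), and TNXB, tenascin-X, was not called (0.22 ± 0.25). MFAP1, the nuclear protein, had log2FC from -0.06 to 0.04 at the 4 times.

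At 1 week every repaired library was above every control for 39 of 55 members, where this held for 16.1% of all genes. At 2 weeks it held for 1 member, a smaller share than the 4.10% of all genes, at 4 weeks for 10 (5.19% of all genes) and at 8 weeks for 9 (4.24%, with 3 repaired libraries). At 2 weeks more members were DE than at 1 week but fewer were free of overlap, over 5 libraries a group against 4. Rabbits 59 and 62 had 49 and 44 of 55 members more than 2-fold above their own control (median log2 ratio 3.27 and 2.56), rabbits 61 and 60 had 18 and 11 (0.56 and 0.39), and rabbit 64 had 4 (-0.02). At 4 weeks rabbits 63, 66, 67 and 68 had 39, 35, 21 and 4 members more than 2-fold higher, with medians of 1.68, 1.37, 0.59 and -0.20. Without the repaired library of rabbit 68, ADAMTS5, EFEMP1 and NID2 were DE at 4 weeks (adjusted p = 0.0193, 0.00703 and 0.0322, limma-voom, with 1.62% of all genes DE). At 1 week the rabbits were closer, with 22, 28, 42 and 31 members in rabbits 5, 6, 7 and 8 and medians of 0.79 to 1.49. At 8 weeks rabbits 1, 2 and 4 had 11, 13 and 9 and medians of 0.24 to 0.40. The same rabbits that were high in members had more genes of all kinds more than 2-fold higher: 29.9% and 21.1% in rabbits 59 and 62, and 7.44% to 7.71% in rabbits 60, 61 and 64. These member counts by rabbit are not split by source. The 41 members found in the co-expression rows were taken from genes that vary together among the repair libraries. A shared order of rabbits among members is thus in part set by that choice.

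**Figure D4:**
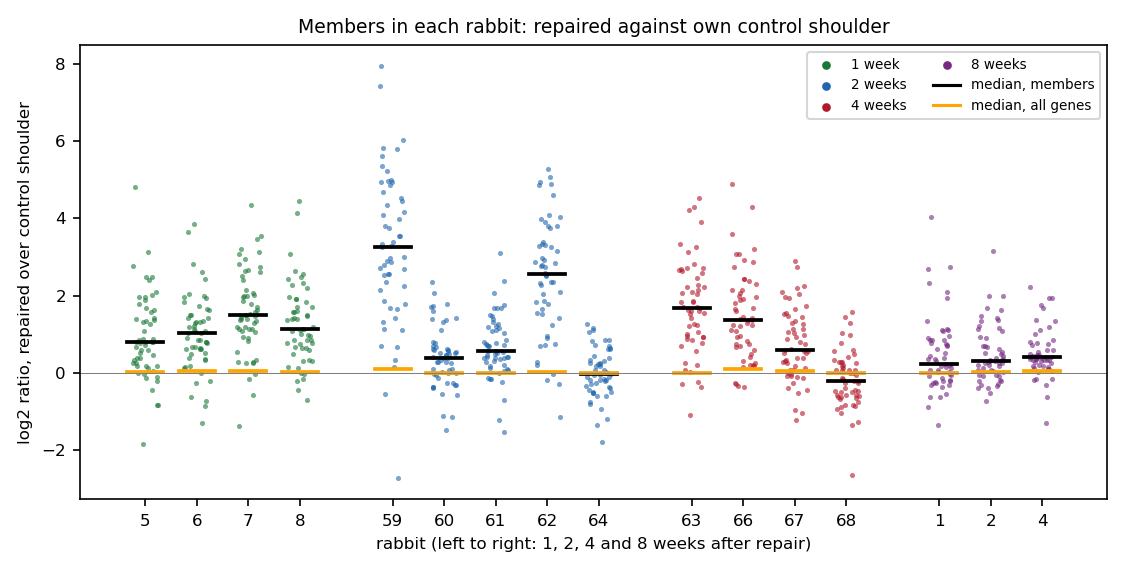
Log2 ratio of the repaired over the own control shoulder (y axis) for each of the 55 members (points) in each rabbit (x axis), by time after repair, with the median of members in black and of all genes in orange. At 2 weeks the member medians run from -0.02 in rabbit 64 to 3.27 in rabbit 59, while the all-gene medians stay between 0.00 and 0.09 there.

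The calls at 2 weeks rested on few libraries. Without the repaired library of rabbit 59, or without that of rabbit 62, 2 of the 18 DE members were left, LAMA3 and MFAP4 in each case. Leaving out the control of rabbit 59, 60, 61, 62 or 64 left 9, 3, 4, 4 and 5, whereas without the repaired library of rabbit 60, 61 or 64 all 18 stayed DE, of 28, 21 and 35 in all. At 1 week, leaving out the controls of rabbits 5, 6, 7 and 8 left 4, 6, 3 and 6 of the 10, and leaving out their repaired libraries 10, 5, 5 and 8. ADAMTS5, ADAMTSL1 and LTBP1 stayed DE at 1 week in each of these fits, and LAMA3 in all but that without the control of rabbit 7 (adjusted p = 0.0517). Without the repaired library of rabbit 59, which shares in the estimate of spread, 28 members were DE at 1 week, against 10.8% of all genes. In fits without 1 library of its own week, 2.5% to 6.88% of all genes were DE at 1 week and 0.835% to 12.4% at 2 weeks, so the calls over all genes moved as well. Fitted on the 2-week libraries alone, 0 members and 0% of all genes were DE at 2 weeks, and with quality weights 5 members and 1.89%.

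Of the members, 7 were DE at both 1 and 2 weeks (ADAMTS3, ADAMTS5, ADAMTSL1, LAMA3, LTBP1, MFAP4 and NID2), against 2.06% of all genes. Among these, ADAMTS3 passed the filter only through repair libraries, so its part in the count is not independent of that filter. DE at 1 week alone were 3 (4.10% of all genes) and at 2 weeks alone 11 (3.71%). The log2FC was largest at 2 weeks in 34 members and smallest at 8 weeks in 40, and it was above 0 at all 4 times in 42 and below 0 at all 4 in ADAMTSL4 and ADAM8. The difference of effects itself was tested within a library series. The effect at 1 week minus that at 8 weeks was positive in 48 of 55 members with a median of 0.64, and the effect at 2 weeks minus that at 4 weeks in 43 with a median of 0.45. Neither difference was called for any member in limma-voom (smallest adjusted p 0.827 and 1.00), edgeR or DESeq2. Over all genes 0% were called in limma-voom and in edgeR, and 0.0232% and 0.00775% in DESeq2. At an unadjusted p under 0.05 there were 3 and 1 members, against 5.28% and 2.77% of all genes. So members DE at 1 week were not shown to differ in effect from 8 weeks, nor those DE at 2 weeks from 4 weeks. Effects at 1 and 4 weeks, and at 2 and 8 weeks, lie in different library series and were not tested against each other.

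Other genes of the matrix, from a list of collagens, their assembly enzymes, proteoglycans, adhesive glycoproteins, TGF-beta pathway genes and matrix receptors, could be matched for 48 of 88. Of these, 7 were DE and higher at 1 week and 9 at 2 weeks (4.72% and 4.82% of all genes), none lower, and none at 4 or 8 weeks. At both times they included the basement membrane collagen COL4A1 (log2FC 1.35 ± 0.42 and 1.36 ± 0.35) and the small proteoglycan OGN (1.94 ± 0.50 and 2.17 ± 0.41). LOX and CD44 were DE at 1 week alone (2.72 ± 0.93 and 1.38 ± 0.47), and COL1A1, COL1A2 and the receptor TGFBR2 at 2 weeks alone (2.80 ± 0.88, 2.53 ± 0.79 and 1.31 ± 0.32). Over all weeks 24 of the 48 were DE and higher (8.33% of all genes), and BMPR2 and DAG1 were called lower, at -0.17 ± 0.07 and -0.27 ± 0.07.

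Markers of the cells in the muscle differed in how they moved after repair. In bulk RNA more cells of a type cannot be told apart from more RNA per cell. The 8 fibroblast markers found of 10 were COL1A1, COL1A2, COL3A1, DCN, DPT, PDGFRA, FN1 and LOX. They summed to 5228 to 19526 CPM after repair at 1 week and 1460 to 1880 in control. At 2 weeks they summed to 62534 and 16416 CPM in rabbits 59 and 62 and to 2069, 983 and 638 in rabbits 61, 60 and 64. Controls of that week summed to 760 to 1325, and the repaired shoulders stood in the same order of rabbits as in the members. COL1A1, COL1A2, COL3A1, DCN, FN1 and LOX are themselves in the list of matrix genes above. The shared order is therefore not a measure of fibroblasts apart from the matrix. At 2 weeks the fibroblast markers were not set against the members in a test. At 4 weeks they summed to 5671, 2834, 2539 and 875 in rabbits 63, 66, 67 and 68 and at 8 weeks to 2946 to 4847, against 589 to 1266 and 1773 to 3653 in control. The 4 macrophage markers found of 8 summed to 382 and 98.6 CPM in rabbits 59 and 62 and to 4.87 to 13.3 in the other 2-week repaired shoulders. Controls of that week summed to 5.67 to 9.75. Rabbits 61 and 64 were below their own control, and rabbits 59, 60 and 62 above it. Macrophage sums were 18.3 to 76.2 CPM after repair against 11.6 to 27.5 in control at 1 week, 2.08 to 27.4 against 3.03 to 10.1 at 4 weeks and 26.8 to 59.3 against 17.8 to 39.7 at 8 weeks. The 2 tendon and cartilage markers found of 7, MKX and ACAN, reached 208 and 26.8 CPM in rabbits 59 and 62. In the others of that week they held 0.248 to 1.94, against 0.291 to 0.822 in control. They summed to 2.20 to 17.2 CPM after repair against 0.636 to 1.00 in control at 1 week, 0.391 to 2.63 against 0.104 to 0.626 at 4 weeks and 3.32 to 17.2 against 0.692 to 3.08 at 8 weeks, without overlap at 1 and 8 weeks. Endothelial markers (3 of 6 found) summed to 237 to 323 CPM after repair at 1 week and 192 to 256 in control, to 110 to 629 against 126 to 145 at 2 weeks, to 171 to 233 against 141 to 220 at 4 weeks and to 206 to 217 against 212 to 224 at 8 weeks. Adipocyte markers (3 of 7) summed to 451 to 1237 CPM after repair against 233 to 361 at 1 week, 329 to 1070 against 246 to 323 at 2 weeks, 555 to 916 against 148 to 321 at 4 weeks, and 356 to 576 against 258 to 380 at 8 weeks, where the groups overlapped. Muscle fibre markers (4 of 17: MYOM2, DES, ATP2A1 and TNNT3) summed to 6367 to 38607 CPM after repair and 37867 to 49241 in control at 1 week, 9157 to 41586 against 19162 to 45403 at 2 weeks, 22526 to 41255 against 28449 to 70033 at 4 weeks and 22945 to 46875 against 32783 to 45583 at 8 weeks. Of these, MYOM2 fell by 1.67 ± 0.46 at 1 week (adjusted p = 0.0198, limma-voom), with ATP2A1 at -1.19 ± 0.57, TNNT3 at -1.57 ± 0.66 and DES at 0.00 ± 0.29 not called. At 2 weeks DES fell by 0.84 ± 0.23 (adjusted p = 0.0219, limma-voom), with MYOM2 at -0.90 ± 0.40, ATP2A1 at -0.11 ± 0.45 and TNNT3 at -0.22 ± 0.57 not called, and none of the 4 was called at 4 or 8 weeks. No list was at 0 in any library. The part of these cells in the change of the members was not tested.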

How the data were processed

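RNA-seq libraries of repaired and control supraspinatus were taken as deposited by the authors, who aligned reads with STAR to OryCun2.0 and estimated gene totals (expected counts) with RSEM. FastQC, RSEM, edgeR and limma are named in the submitters' processing notes. The deposited counts were not normalized, and 0 columns belonged to no sample. Reference sequence and gene length were not used here, so levels are CPM, not per length, and levels of members are not compared between genes. The marker sums do add CPM over genes, so the markers with the highest levels weigh most in them.

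Counts were TMM-scaled and genes over 1 CPM in at least 1 library were fitted together in R 4.3.3 by voom of limma (version 3.58.1), after scaling by edgeR (version 4.0.16), with 8 group means over 33 libraries, so the groups share 1 estimate of the spread. CPM values use the same scaling, except the highest values given beside the filter minimum and the counts of libraries over 1 CPM. Those use library totals without TMM scaling. P-values were adjusted by the Benjamini-Hochberg method over all genes tested, at an adjusted p-value of 0.05 and an absolute log2FC of 1. Alternatives were the fit of all 34 libraries, scaling by median ratios, every gene unfiltered, CPM over 1 in 5 libraries, filterByExpr, edgeR's quasi-likelihood test and DESeq2 1.42.0 (both on rounded counts), the rabbit as a block, a rabbit correlation (estimated at 0.174), sample quality weights, 1 time point alone, and each library left out. The scripts were tested on simulated data.

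Both shoulders come from the same animal. Over 16 pairs the deviations from the group means correlated at 0.0252 to 0.434 over all genes tested (median 0.257), 15 of 16 over 0.1. Over the members alone they correlated at -0.171 to 0.543 (median 0.150). No library was a copy of another (highest correlation 0.987).

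Members, roles and lists were chosen with earlier results of these data known. Members are given in full where DE at 1 or more times, at most 4 per role by their smallest adjusted p, and those named outside this rule are said to be so or are given as values from the rest of their role. The authors' own comparison tables gave gene symbols only, and neither the values in them nor the histology were used.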

Additional observations from a re-analysis of the deposited data

Results flagged for a closer look

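Within a group of 4 or 5 libraries, 9 of 161 tested member groups had 1 library standing apart by Dixon's test, which compares the gap to the nearest library with the whole range on a log2(CPM + 0.01) scale, and chance flags about 1 in 20 groups. After repair, ADAMTS5 at 4 weeks stood apart at a gap share of 0.973, since rabbit 68 held 3.23 CPM and the others 7.37 to 7.54. CTSK at 1 week gave 0.943, with rabbit 7 at 177 CPM and the others at 86.5 to 90.1. ADAMTSL4 gave 0.735 at 2 weeks, with rabbit 59 at 39.9 CPM below 75.4 to 94.8, and 0.905 at 4 weeks, with rabbit 63 at 40.2 below 83.5 to 90.2. Among controls, ADAMTS3 gave 1.000 at 4 weeks (rabbit 67 at 0.104 CPM and the others at 0, so that any value above 0 gives this share) and 0.854 at 8 weeks (rabbit 2 at 0.115). ADAMTS12 gave 0.833 at 4 weeks (rabbit 68 at 3.23 CPM). The NID1 gene ENSOCUG00000022385 gave 0.934 at 1 week (rabbit 6 at 22.3 CPM) and LTBP2 0.869 at 8 weeks (rabbit 4 at 10.7 CPM). The cause was not tested.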

How the results depend on the processing

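The number of members DE over all weeks ran from 22 to 36 in 10 other settings (7% to 11.9% of all genes), against 29, and from 24 (without the repaired library of rabbit 7 or of rabbit 59, or the control of rabbit 63) to 32 (without the repaired library of rabbit 60) when 1 library was left out. At 1 week, where 10 were DE, the count was 3 with all 34 libraries (1.95% of all genes), 20 in DESeq2 (7.66%), 19 with the rabbit correlation (8.82%), 33 with sample quality weights (12.0%) and 30 in the libraries of that week alone (8.95%), where 6.16% of all genes were DE in the report's fit. At 2 weeks, where 18 were DE, it was 4 with all 34 libraries (2.37% of all genes), 42 in edgeR (15.5%) and in DESeq2 (15.7%), 5 with quality weights (1.89%) and 0 in that week alone (0%), where 5.77% were DE in the report's fit. At 4 weeks, where 0 were DE, it was 3 in edgeR (1.75% of all genes), 8 in DESeq2 (3.03%), 1 with the rabbit correlation (0.711%) and 10 with quality weights (3.59%), and at 8 weeks 2 with quality weights (0.402%). Leaving out 1 library gave 3 (without the control of rabbit 7) to 28 at 1 week and 2 to 35 at 2 weeks. At 4 weeks it gave 0 to 3 (3 without the repaired library of rabbit 59 or of rabbit 68, with 1.20% and 1.62% of all genes) and at 8 weeks 0. Pairing by the rabbit block gave 30, 37, 4 and 0 members DE at 1, 2, 4 and 8 weeks and 32 over all weeks, and its values stand in the report beside members whose call it moved, MMP12 apart.

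Signs changed only for values that were not called. With all 34 libraries the 8-week log2FC was -0.21 for ADAMTS5, -0.31 for ADAMTS9, -0.15 for ADAM19 and -0.31 for NID2. With the rabbit block it was -0.02 for ADAMTS9 and 0.07 for the NID1 gene ENSOCUG00000022385, and with quality weights -0.20, -0.01 and 0.02 for ADAMTS9, ADAM19 and that NID1 gene. Leaving out 1 library gave -0.31 to 0.05 for ADAMTS9 at 4 weeks, and at 8 weeks -0.28 to 0.26 for ADAMTS9, -0.08 to 0.43 for EFEMP1 and -0.09 to 0.08 for that NID1 gene. The cause was not tested. Of 1242 other-setting values of 23 named members, 1073 kept direction and call, 74 lost a call, 86 gained one and 9 changed sign. Fits on 1 time point cannot give the average over weeks or a difference between weeks. ADAMTS3 and MMP12 were near 0 in control libraries, so the depth limits their fold changes.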
